A study of Rattus norvegicus with 30 samples.

Results

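The 6 genes Cd163, Mrc1, Lyve1, Folr2, Stab1 and F13a1, which are widely used to mark resident tissue macrophages, were followed in whole tendons. The genes were taken as a named list, gene by gene, from the 13124 genes of the deposited rat tendon table, and all 6 were found there and passed the filter on low values. Resident macrophages live in connective tissue before any injury, where they take up debris, hemoglobin complexes, glycoproteins and matrix fragments, whereas a wound also draws in monocytes that become macrophages on site. The endocytic receptors on resident cells are often used as "M2" or CD206+ markers, but recruited cells can also make several of them, and Lyve1 and Stab1 are made by lymphatic or sinusoidal endothelium as well. In the rat, the CD163 protein is the antigen of the antibody ED2, which has long been used to tell resident from newly arrived macrophages. F13a1 encodes the A subunit of coagulation factor XIII, a transglutaminase enzyme, and is not a receptor although it is listed with them here.

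The samples were single right plantaris tendons from 3-month-old male Sprague Dawley rats, and the study asked whether blocking hematopoietic prostaglandin D synthase with GSK2894631A changes tendon repair. Control tendons (n = 3) came from rats with no surgery and no compound. All other tendons had a full-thickness tenotomy with immediate repair in both legs, with the Achilles tendon next to the plantaris left in place, and were taken at 7 days (7D) or 21 days (21D). These rats received the compound by oral gavage at 0 mg/kg (vehicle only; n = 5 at 7D and n = 5 at 21D), 2 mg/kg (n = 4 at 7D and n = 5 at 21D) or 6 mg/kg (n = 3 at 7D and n = 5 at 21D). Because controls had neither surgery nor gavage, these cannot be told apart in any comparison with control. Each library is one whole tendon, so fewer macrophages and less RNA per macrophage cannot be told apart either.

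The 30 libraries held between 12405741 and 49909374 counted reads. Control replicate 4 stood apart: it had the lowest level of all 6 genes among the controls, the highest share of reads on 16 measured skeletal muscle genes (24.2%, against 17.1% and 17.3% in the other controls) and the lowest mean log2 CPM (CPM are counts divided by the TMM-scaled library size and put on a common total) of 8 general macrophage genes, at 3.90 against 5.57 and 5.46. The muscle share was between 0.156% and 1.13% at 7D 0 mg/kg, no higher than 0.00946% in the 7D tendons that received 2 or 6 mg/kg, and between 0.0596% and 8.58% at 21D. Of the tendon markers, Mkx had a log2 fold change of -4.10 and Col1a1 of 1.14 at 7D 0 mg/kg against control. Where leaving out control replicate 4 changed a call against control in the 6 genes, or a count printed here for another gene list, the value without it is given. Counts of the other lists that are not printed here also changed in places. The choice of scaling also matters, since scaling by library size alone moved the median log2 fold change of all genes against control from between 0.0073 and 0.0548 to between 0.51 and 0.64.

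In the deposited table Cd163 is ENSRNOG00000010253 on chromosome 4 and Mrc1 is ENSRNOG00000018251 on chromosome 17. Lyve1 (ENSRNOG00000026902) and Folr2 (ENSRNOG00000019890) are both on chromosome 1, Stab1 (ENSRNOG00000018434) is on chromosome 16 and F13a1 (ENSRNOG00000015957) shares chromosome 17 with Mrc1. Reads were counted over exons of the rn6 build, so the values include coding and untranslated exons and no introns. RefSeq promoter windows, each 300 bases around the start of the gene on the GRCr8 build, were found for all 6 genes and were searched on both strands for 3 short motifs picked after the windows had been seen. The motif AGGAAGT, the core bound by PU.1 and other ETS factors of the macrophage lineage, was present in 3 of the 6 windows and in 8.41% of 33469 rat promoter windows of the same length. The MAF half-site TGCTGA was present in the windows of Folr2 and Stab1 and in 18.4% of all windows, and the AP-1 site TGANTCA was in none of the 6 and in 7.33% of all windows. A match of letters is not a binding site. The 3 windows with AGGAAGT (or ACTTCCT, the same motif on the other strand) are shown 5′ to 3′ on the strand of the gene with the motif in capitals, since these letters are shared by Mrc1 and Folr2, which were higher than control at 7D 0 mg/kg, and F13a1, which was not called there. They lie at chr17:82157475-82157774 on the plus strand (Mrc1), chr1:165630333-165630632 on the minus strand (Folr2) and chr17:28020947-28021246 on the plus strand (F13a1).
Mrc1: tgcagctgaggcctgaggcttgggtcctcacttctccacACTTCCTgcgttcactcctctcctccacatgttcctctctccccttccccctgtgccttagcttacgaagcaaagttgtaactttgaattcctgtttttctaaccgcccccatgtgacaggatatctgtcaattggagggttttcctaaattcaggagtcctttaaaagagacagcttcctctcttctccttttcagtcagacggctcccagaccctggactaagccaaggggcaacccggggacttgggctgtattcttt
Folr2: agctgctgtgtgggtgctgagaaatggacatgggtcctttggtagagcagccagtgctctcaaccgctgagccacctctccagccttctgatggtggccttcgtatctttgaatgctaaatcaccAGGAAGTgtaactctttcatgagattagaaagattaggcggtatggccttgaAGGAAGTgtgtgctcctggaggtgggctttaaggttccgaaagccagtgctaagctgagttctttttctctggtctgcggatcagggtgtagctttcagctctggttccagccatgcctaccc
F13a1: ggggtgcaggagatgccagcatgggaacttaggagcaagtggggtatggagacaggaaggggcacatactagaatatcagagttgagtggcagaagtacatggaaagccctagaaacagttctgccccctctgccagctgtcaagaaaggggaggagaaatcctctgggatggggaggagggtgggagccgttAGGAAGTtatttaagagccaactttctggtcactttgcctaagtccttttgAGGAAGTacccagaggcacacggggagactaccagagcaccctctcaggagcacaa

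At 7D after repair, tendons given vehicle had more Mrc1, Folr2 and Stab1 RNA and less Lyve1 RNA than control tendons, with no change past the threshold in Cd163 or F13a1. By 21D only Folr2 was higher than control at every dose, and the levels of Cd163 and Stab1 were below those of 7D past the threshold at 2 of the 3 doses each. Many of these differences rested on single tendons. Without control replicate 4, Mrc1 and Folr2 did not pass the threshold at 7D 0 mg/kg, nor did Folr2 at any dose of 21D. Each fall of Cd163 or Stab1 from 7D to 21D lost its call in 4 to 7 fits without 1 tendon. With edgeR at an adjusted p under 0.05, 4 of the 6 genes differed between 7D 0 mg/kg and control (3 higher, 1 lower), where 71.4% of the 12558 genes tested did so. At 7D 2 mg/kg 3 genes were higher (69.7% of all genes called) and at 7D 6 mg/kg 4 genes were higher (67.9%). At 21D the count was 2 genes with vehicle (65.9%), 1 with the 2 mg/kg dose (69.1%) and 1 with the 6 mg/kg dose (64.1%). The median log2 fold change of the 6 genes was 1.01 at 7D 0 mg/kg, beside 0.05 over all genes. Fitted with only the control and 7D 0 mg/kg tendons, 2 genes were called (Folr2 and Stab1), and with scaling by library size alone 4 were called, all of them higher (Cd163, Mrc1, Folr2 and Stab1). These shares of members called are close to or below the shares over all genes, so that the counts alone do not set the 6 genes apart. All 6 comparisons use the same 3 control tendons and are not independent of each other.

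**Figure D1:**
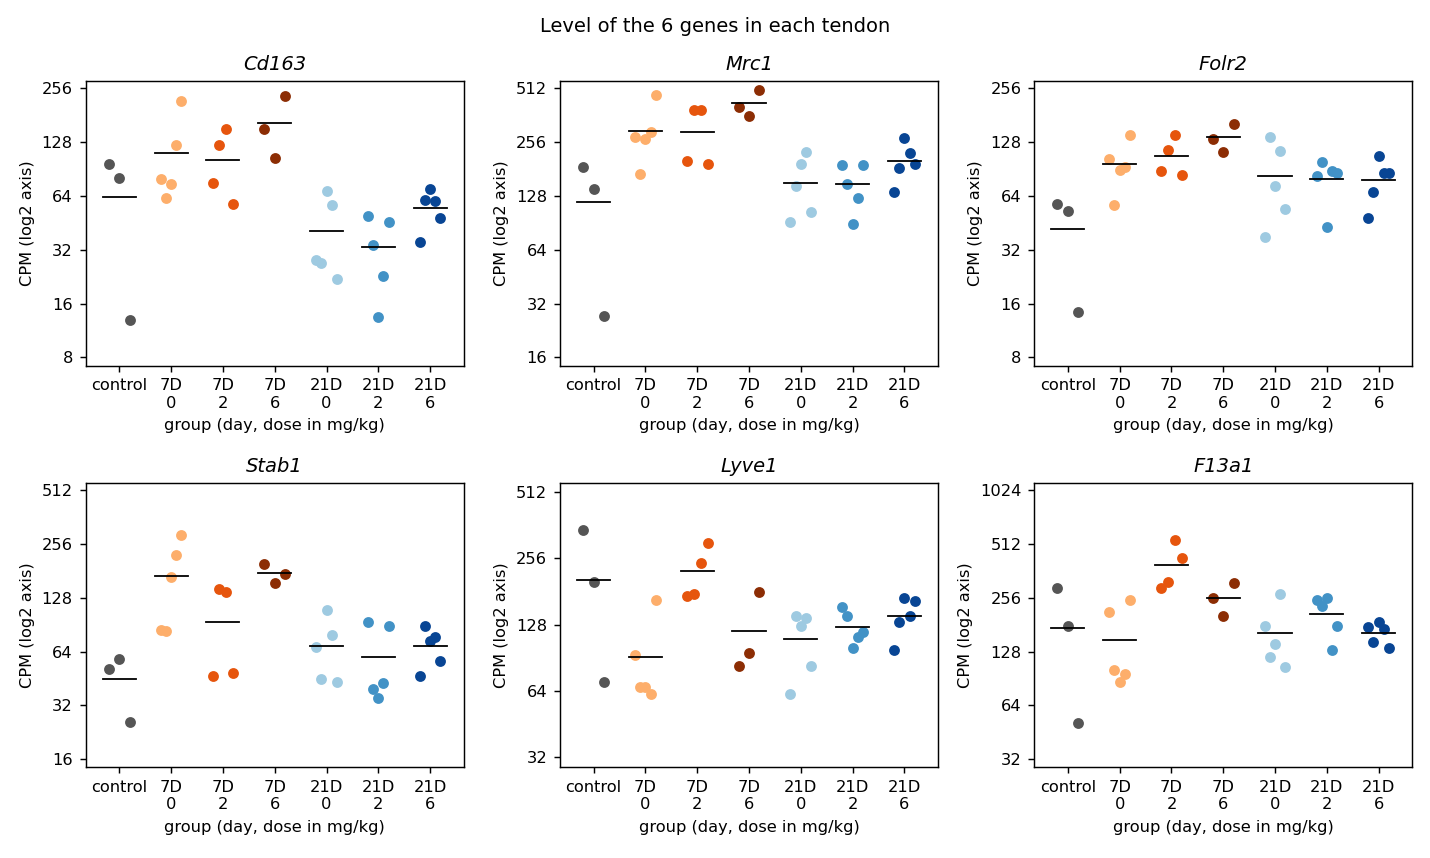
Level of each gene in each of the 30 tendons, in CPM on a log2 axis, by group; each point is 1 tendon and the black line is the group's mean CPM. Control replicate 4 is the lowest control point in every panel, Mrc1 and Stab1 are highest at 7D, and Lyve1 and F13a1 have their highest repaired levels at 7D 2 mg/kg.

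Cd163 is the scavenger receptor that clears complexes of haptoglobin and hemoglobin. Its level in the controls was 96.5, 80.6 and 12.98 CPM. At 7D it was 79.4, 62.1, 75.0, 124 and 218 CPM with 0 mg/kg. The controls overlapped with the vehicle tendons at 7D, and without control replicate 4 the remaining controls lay inside their range. With 2 mg/kg the level at 7D was 75.5, 123, 152 and 57.8 CPM. With 6 mg/kg it was 153, 104 and 233 CPM. The 3 tendons with 6 mg/kg were above every control tendon. At 21D the level was 28.1, 26.9, 68.5, 57.3 and 22.0 CPM with 0 mg/kg. With 2 mg/kg it was 49.4, 33.9, 13.5, 22.7 and 45.9 CPM. With 6 mg/kg at 21D it was 35.4, 61.1, 69.9, 60.2 and 48.3 CPM. All 15 tendons at 21D were below the highest control, and with 2 or 6 mg/kg none of them reached the lowest 7D tendon of the same dose. The vehicle groups of 7D and 21D overlapped.

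The ordering of the Cd163 group means ran from 163 ± 65.3 CPM (SD, n = 3) at 7D 6 mg/kg down to 33.1 ± 15.2 CPM (SD, n = 5) at 21D 2 mg/kg, with the control at 63.4 ± 44.4 CPM (SD, n = 3) in between, and no neighbouring pair in this order differed past the threshold. Against control the one call was at 7D 6 mg/kg, with a log2 fold change of 1.36 (SE 0.59, edgeR adjusted p = 0.0432). It was 0.85 (edgeR adjusted p = 0.197) without control replicate 4, and the call was also lost without replicate 1 or 5 of 7D 6 mg/kg (1.41 and 1.01) and with only the compared groups in the fit. Cd163 was, without control replicate 4, called as lower than control at 21D 0 mg/kg (-1.17, edgeR adjusted p = 0.0415) and 21D 2 mg/kg (-1.48, edgeR adjusted p = 0.0103), where the values with all controls were -0.65 and -0.94 and not called. From 7D to 21D Cd163 fell by 1.63 on the log2 scale at 2 mg/kg (SE 0.48, edgeR adjusted p = 0.0246), where 13.1% of all genes were called, and by 1.57 at 6 mg/kg (SE 0.51, edgeR adjusted p = 0.0400), where 13.1% were called as well. At 0 mg/kg the log2 difference was -1.46 (SE 0.46, edgeR adjusted p = 0.0570). DESeq2 gave -1.45 with an adjusted p of 0.0150 at 0 mg/kg. The comparisons between the time points use no control tendon, but 4 of the 9 fits that left out 1 tendon at 2 mg/kg, and 6 of the 8 at 6 mg/kg, gave an edgeR adjusted p above the threshold.

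Mrc1 encodes the mannose receptor CD206, a lectin that takes up glycoproteins and collagen fragments. In the controls its level was 187, 141 and 27.2 CPM. In the vehicle tendons at 7D it was 274, 169.9, 268, 292 and 469 CPM. Of the vehicle tendons at 7D 4 of 5 were above every control. The 7D tendons given 2 mg/kg had 201, 390.2, 387 and 193 CPM. The 7D tendons given 6 mg/kg had 405, 357 and 502 CPM. All tendons with 2 or 6 mg/kg at 7D were above the highest control. At 21D the vehicle tendons had 91.2, 146, 193, 226 and 105 CPM. Tendons given 2 mg/kg had at 21D 191, 149, 89.4, 124 and 192 CPM. Tendons given 6 mg/kg had at 21D 136, 184, 271, 223 and 193 CPM. Every group at 21D overlapped with the controls.

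Mean Mrc1 levels were highest at 7D 6 mg/kg (422 ± 74.0 CPM, SD, n = 3) and lowest in the controls (118 ± 82.3 CPM, SD, n = 3), with the 3 groups at 7D above the 3 at 21D. No neighbours in this order differed past the threshold. At 7D 0 mg/kg Mrc1 was 2.49-fold higher than in control (log2 fold change 1.31, SE 0.44, edgeR adjusted p = 0.00964). Without control replicate 4 the log2 fold change was 0.79 with an edgeR adjusted p of 0.0759. At 7D 2 mg/kg it was 1.31 (SE 0.45, edgeR adjusted p = 0.0127), and without that tendon 0.79 with an edgeR adjusted p of 0.0862. At 7D 6 mg/kg the log2 fold change was 1.83 (SE 0.48, edgeR adjusted p = 0.00164) and was 1.33 with an edgeR adjusted p of 0.0090 without it. At 21D the log2 fold changes against control were 0.36, 0.33 and 0.76 at 0, 2 and 6 mg/kg and none was called. The difference of 21D from 7D was between -0.95 and -1.07 on the log2 scale at the 3 doses, with edgeR adjusted p values of 0.108, 0.0907 and 0.0847.

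Stab1 encodes stabilin-1, a scavenger receptor for modified lipoproteins and for SPARC, a secreted matrix protein, and it is also found on sinusoidal and lymphatic endothelium. In the controls its level was 50.8, 58.4 and 25.9 CPM. In the vehicle tendons at 7D it was 84.8, 83.2, 168, 222 and 286 CPM. The vehicle tendons at 7D did not overlap with the controls. In the 2 mg/kg group at 7D it was 46.7, 144, 138 and 48.5 CPM. In the 6 mg/kg group at 7D it was 198, 155 and 175 CPM. The 4 tendons with 2 mg/kg fell into a pair within the control range and a pair above it, and all 3 tendons with 6 mg/kg were above the 2 mg/kg group. At 21D the level was 67.6, 44.7, 109, 79.0 and 43.4 CPM with 0 mg/kg. In the 2 mg/kg group at 21D it was 93.4, 39.4, 35.1, 42.6 and 88.7 CPM. In the 6 mg/kg group at 21D it was 46.8, 89.3, 73.2, 77.2 and 57.0 CPM. At each dose the 21D tendons overlapped with the controls.

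Stab1 had the largest log2 fold change of the 6 genes against control at 7D 0 mg/kg, at 1.90 (SE 0.48, edgeR adjusted p = 0.00106), and at 7D 6 mg/kg, at 1.96 (SE 0.51, edgeR adjusted p = 0.00159). Without control replicate 4 the values were 1.57 (edgeR adjusted p = 0.0145) and 1.65 (edgeR adjusted p = 0.0159). At 7D 2 mg/kg it was 1.06 with an edgeR adjusted p of 0.0502, just above the threshold, and 0.0300 by DESeq2. From 7D to 21D Stab1 fell by 1.29 on the log2 scale at 0 mg/kg (SE 0.39, edgeR adjusted p = 0.0495), in a comparison that called 5.35% of all genes, and by 1.36 at 6 mg/kg (SE 0.43, edgeR adjusted p = 0.0383). The call at 0 mg/kg was lost in 7 of 10 fits without 1 tendon, and that at 6 mg/kg in 7 of 8. The order of the group means ran from 7D 6 mg/kg (176 ± 21.5 CPM, SD, n = 3) and 7D 0 mg/kg (169 ± 88.0 CPM, SD, n = 5) to control (45.0 ± 17.0 CPM, SD, n = 3), and no neighbours in it differed past the threshold.

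Folr2 encodes folate receptor beta, which is anchored in the membrane of macrophages and carries folate into the cell. Its level in the controls was 57.9, 52.4 and 14.4 CPM. With vehicle at 7D it was 103, 57.3, 89.7, 93.2 and 141 CPM. One vehicle tendon at 7D lay below the highest control and the other 4 above it. With 2 mg/kg at 7D it was 88.2, 115, 139.7 and 83.4 CPM. With 6 mg/kg at 7D it was 134, 113 and 162 CPM. No tendon with 2 or 6 mg/kg at 7D overlapped with the controls. At 21D the level was 37.7, 136, 72.8, 115 and 54.2 CPM with 0 mg/kg. With 2 mg/kg at 21D it was 83.0, 98.9, 43.1, 88.0 and 86.5 CPM. With 6 mg/kg at 21D it was 48.0, 67.7, 107, 86.5 and 86.0 CPM. Each group at 21D held at least 1 tendon within the control range and at least 3 above it.

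Folr2 was the one gene of the 6 past the threshold against control in all 6 repaired groups. Its log2 fold changes were 1.21, 1.35 and 1.71 at 7D with 0, 2 and 6 mg/kg (edgeR adjusted p = 0.00993, 0.00633 and 0.00157), and 0.99, 0.94 and 0.92 at 21D (edgeR adjusted p = 0.0326, 0.0410 and 0.0470). Without control replicate 4 the call was kept at 7D 6 mg/kg (log2 fold change 1.27, edgeR adjusted p = 0.0136) and was lost in the other 5 groups, where the values were 0.75, 0.90, 0.54, 0.47 and 0.47 and the edgeR adjusted p lay between 0.0574 and 0.309. At 21D the call was lost in 3, 5 and 4 of 8 fits without 1 tendon at 0, 2 and 6 mg/kg, and RLE size factors ended it at 6 mg/kg (edgeR adjusted p = 0.0506). With only the compared groups in the fit it was lost at all 3 doses of 21D. With the skeletal muscle share as a covariate, Folr2 was not called at any dose of 7D or at 21D 0 or 6 mg/kg. Its sign turned in that fit at 7D 2 and 6 mg/kg (-0.61 and -0.25). The share separates control from repaired tendons completely. The mean level of the repaired groups ran from 136 ± 24.3 CPM (SD, n = 3) at 7D 6 mg/kg to 79.1 ± 22.4 CPM (SD, n = 5) at 21D 6 mg/kg, and the control followed at 41.6 ± 23.7 CPM (SD, n = 3). The step from 21D 6 mg/kg to control was the one pair of neighbours in this order that passed the threshold. Between 7D and 21D Folr2 differed by -0.22, -0.42 and -0.79 on the log2 scale at 0, 2 and 6 mg/kg, and none of these was called.

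**Figure D2:**
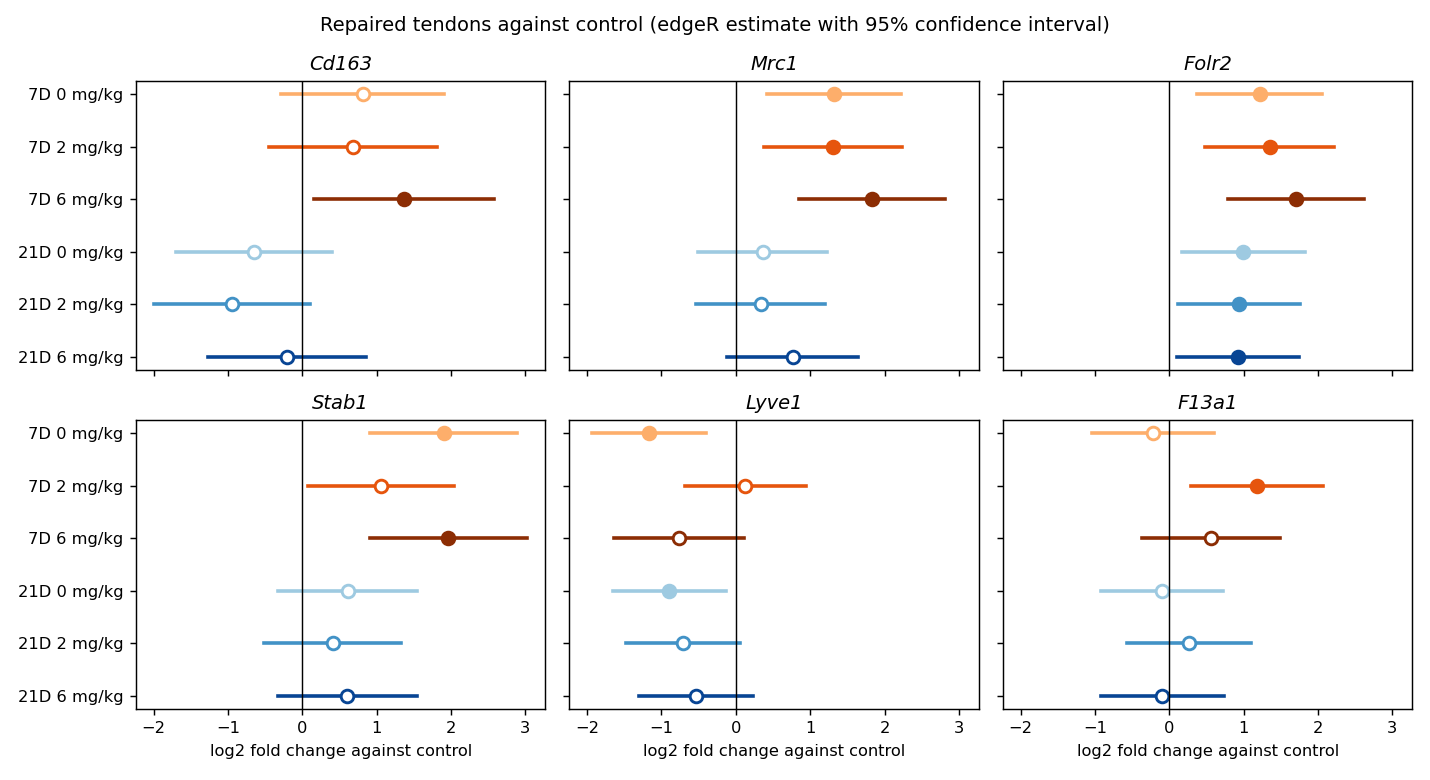
Log2 fold change of each gene in each repaired group against the 3 control tendons (points, with 95% confidence intervals as bars); filled points had an edgeR adjusted p under 0.05. The points for Mrc1, Stab1 and Folr2 are all to the right of 0, Folr2 alone is filled in all 6 groups, and those for Lyve1 are to the left of 0 except at 7D 2 mg/kg, which has 0.13.

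Lyve1 encodes a membrane receptor for hyaluronan, a matrix sugar that accumulates in wounds, and marks perivascular macrophages as well as lymphatic vessels. Its level in the controls was 342, 199 and 70.4 CPM. With vehicle at 7D it was 92.9, 66.8, 66.3, 62.0 and 166 CPM. All 5 vehicle tendons at 7D were below 2 of the 3 controls and overlapped with control replicate 4. Rats given 2 mg/kg had at 7D 173, 175, 243 and 301 CPM. Rats given 6 mg/kg had at 7D 82.8, 95.5 and 181 CPM. The lowest tendon with 2 mg/kg at 7D was above the highest vehicle tendon, while the 6 mg/kg tendons overlapped with both. With vehicle at 21D the level was 62.1, 139.8, 126, 137 and 83.3 CPM. Rats given 2 mg/kg had at 21D 153, 139, 99.8, 112 and 118 CPM. Rats given 6 mg/kg had at 21D 98.1, 132, 169, 139 and 164 CPM. All 15 tendons at 21D were below the middle control.

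Lyve1 was 2.25-fold lower at 7D 0 mg/kg than in control (log2 fold change -1.17, SE 0.37, edgeR adjusted p = 0.00681) and 1.86-fold lower at 21D 0 mg/kg (log2 fold change -0.90, SE 0.37, edgeR adjusted p = 0.0364). Scaling by library size alone gave -0.64 (edgeR adjusted p = 0.133) and -0.40 (edgeR adjusted p = 0.355), beside medians over all genes of 0.64 and 0.59 under that scaling. At 7D 0 mg/kg the log2 fold change was -1.63 (edgeR adjusted p = 0.000229) without control replicate 4 and -0.64 (edgeR adjusted p = 0.143) without control replicate 2, the control with the most Lyve1. The value at 21D 0 mg/kg was -0.36 (edgeR adjusted p = 0.430) without control replicate 2 and -0.88 (edgeR adjusted p = 0.0714) without control replicate 3, and the call was also lost without replicate 1 or 5 of 21D 0 mg/kg and with only the compared groups in the fit. Without control replicate 4 it was also called at 7D 6 mg/kg (-1.21, edgeR adjusted p = 0.00994), 21D 2 mg/kg (-1.18, edgeR adjusted p = 0.0052) and 21D 6 mg/kg (-0.99, edgeR adjusted p = 0.0192), where the values with all controls were -0.77, -0.71 and -0.54. The mean level ran from 7D 2 mg/kg (223 ± 61.2 CPM, SD, n = 4) and control (204 ± 136 CPM, SD, n = 3) through the 3 groups at 21D and 7D 6 mg/kg to 7D 0 mg/kg (90.7 ± 43.6 CPM, SD, n = 5), and no neighbours in this order differed past the threshold.

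F13a1, the coagulation factor XIII A subunit that cross-links fibrin and matrix proteins, is made by macrophages, monocytes and platelets. Its level in the controls was 289.8, 178 and 50.8 CPM. With vehicle at 7D it was 214, 101, 86.0, 96.0 and 247 CPM. The controls and the vehicle tendons overlapped throughout. With 2 mg/kg at 7D the level was 289, 315, 537 and 425 CPM. With 6 mg/kg at 7D it was 256, 202 and 309 CPM. The 4 tendons with 2 mg/kg were above all vehicle tendons of 7D, and those with 6 mg/kg overlapped with both other doses. With vehicle at 21D it was 177, 119.7, 140.1, 269 and 105 CPM. With 2 mg/kg at 21D it was 247, 229, 255, 131 and 179 CPM. With 6 mg/kg at 21D it was 176, 144, 187, 171 and 133 CPM. All 21D groups lay within the range of the controls.

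Against control, F13a1 was called only at 7D 2 mg/kg, where it was 2.26-fold higher (log2 fold change 1.18, SE 0.43, edgeR adjusted p = 0.0184) with 1 of 4 tendons just below the highest control, and the value was 0.69 (edgeR adjusted p = 0.139) without control replicate 4. Its log2 fold changes at 7D 0 mg/kg (-0.22), 21D 0 mg/kg (-0.09) and 21D 6 mg/kg (-0.09) had edgeR adjusted p values of 0.635 or more, and changed sign to 0.31, 0.40 and 0.34 with library size alone. Mean levels ran from 391 ± 113 CPM (SD, n = 4) at 7D 2 mg/kg and 256 ± 53.7 CPM (SD, n = 3) at 7D 6 mg/kg to 149 ± 75.7 CPM (SD, n = 5) at 7D 0 mg/kg, and the neighbours in that order did not differ past the threshold.

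Within each time point, the doses were compared to ask whether the compound altered these genes. At 7D the F-test over the 3 doses called none of the 6 genes, with an edgeR adjusted p of 0.0958 for Lyve1 and 0.105 for F13a1 and at least 0.521 for the other 4, where 2.05% of the table was called. DESeq2's likelihood ratio test called Lyve1 and F13a1 (adjusted p = 0.0129 and 0.0164). Between 2 and 0 mg/kg at 7D, where 2.36% of all genes were called and 0.908% were called as higher, Lyve1 was 2.46-fold higher (log2 fold change 1.30, SE 0.35, edgeR adjusted p = 0.0440). F13a1 was 2.63-fold higher in the same comparison (log2 fold change 1.39, SE 0.37, edgeR adjusted p = 0.0408). Neither gene's tendons overlapped between these groups, but the share of all genes without overlap between them was not counted. The other 4 genes had log2 fold changes between -0.84 (Stab1) and 0.14 (Folr2), and none was called. This pair of doses was 1 of 6 pairs, it was singled out after the values had been seen, and the adjusted p values are over genes and not over pairs.

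The Lyve1 and F13a1 calls at 2 against 0 mg/kg rested on small margins. Leaving out 1 tendon moved the edgeR adjusted p above the threshold in 7 of 9 fits for Lyve1, up to 0.178, and in 6 of 9 for F13a1, up to 0.125, while the log2 fold changes stayed at 1.12 or more for Lyve1 and 1.20 or more for F13a1. The call was lost without vehicle replicate 2, 3 or 4 or without 2 mg/kg replicate 2, 4 or 5 for both genes, and without vehicle replicate 1 for Lyve1 alone. The skeletal muscle share differed between the same groups without overlap, and in a fit with it as a covariate the values were 0.60 (edgeR adjusted p = 0.423) for Lyve1 and 1.36 (edgeR adjusted p = 0.121) for F13a1. Of 6 markers of lymphatic endothelium none was called between 2 and 0 mg/kg at 7D, with log2 fold changes between -0.48 (Flt4) and 0.15 (Mmrn1), and their summed level was 358 to 660.4 CPM with vehicle and 410.2 to 709 CPM with 2 mg/kg. None of the 8 general macrophage genes was called either, with log2 fold changes between -0.39 (Adgre1) and 0.25 (Csf1r). Since 2.36% of all genes were called in this pair, the lack of calls in lists this short is near the share over all genes. Whether the content of lymphatic cells or macrophages differed between these groups was not tested.

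At 6 mg/kg neither gene was called. Against 0 mg/kg at 7D Lyve1 had a log2 fold change of 0.40 (95% confidence interval -0.37 to 1.17) and F13a1 of 0.78 (95% confidence interval -0.03 to 1.59). In that pair 0.390% of all genes were called, and none of the 6 was called by edgeR, by DESeq2 or at an unadjusted p under 0.05. Between 6 and 2 mg/kg at 7D the log2 fold changes were -0.90 (95% confidence interval -1.73 to -0.07) for Lyve1 and -0.61 (95% confidence interval -1.49 to 0.26) for F13a1. There edgeR called 0 of the 12558 genes, with 997 at an unadjusted p under 0.05 and 69 called by DESeq2, and of the 6 genes 1 (Lyve1) was under 0.05 unadjusted and 0 were called by DESeq2. The values at 6 mg/kg thus did not differ past the threshold from those at either other dose, and the intervals are wide. At 21D edgeR called 0 genes over the 3 doses, with 1366 at an unadjusted p under 0.05 and 138 called by DESeq2. None of the 6 genes was among these, and their log2 fold changes between doses at 21D lay between -0.36 (F13a1) and 0.73 (Cd163), both at 6 against 2 mg/kg. The test of whether the dose effect differed between 7D and 21D called none of the 6 genes by edgeR or DESeq2 or at an unadjusted p under 0.05, where edgeR called 0.390% of all genes.

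Genes used as general macrophage markers rose at the same time. Their list held the receptor Csf1r, Adgre1 (F4/80), the lysosomal protein Cd68, Aif1, Spi1, Tyrobp, Fcer1g and Laptm5. All 8 genes were higher at 7D 0 mg/kg than in control, with log2 fold changes between 1.25 (Csf1r) and 3.27 (Cd68). At 21D 0 mg/kg all 8 were again higher, between 1.05 (Aif1) and 3.17 (Cd68). As higher, 35.8% of all genes were called at 7D 0 mg/kg and 32.2% at 21D 0 mg/kg. The count was 7 of 8 at both times without control replicate 4, and Csf1r was not called (0.78 and 0.63). Their summed level was 151 to 539 CPM in controls, 961 to 2045 CPM at 7D 0 mg/kg and 547 to 2333 CPM at 21D 0 mg/kg. To place the 6 genes against this, the mean log2 CPM of the 8 genes was subtracted from every gene in the same tendon as a macrophage index, and the differences were tested with limma. The index is a mean over these 8 genes and not a count of macrophages, so a value relative to it is not a level per macrophage. The part of other leukocytes in the index was not tested.

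Relative to the macrophage index, 4 of the 6 genes were lower at 7D 0 mg/kg than in control, and 84.6% of all genes were lower on this measure with a median difference of -2.26. The differences were -3.34 for Lyve1 (limma adjusted p = 2.62e-08), -2.38 for F13a1 (limma adjusted p = 5.78e-05), -1.24 for Cd163 (limma adjusted p = 0.0161) and -0.95 for Folr2 (limma adjusted p = 0.00201). Mrc1 had -0.70 and Stab1 -0.53, with limma adjusted p values of 0.0733 and 0.327. Lyve1 lay below the median of all genes, F13a1 was within its standard error of 0.49 from it, and the other 4 lay above it. Mrc1 was called as well without control replicate 4 (-1.02, limma adjusted p = 0.0201), and Cd163 was not called without control replicate 2 or 3 (-1.01 and -1.09). At 21D 0 mg/kg all 6 were lower, between -0.80 (Folr2) and -2.57 (Lyve1), where 79.3% of all genes were lower with a median of -1.83, and Stab1 was not called without control replicate 4 (-1.09, limma adjusted p = 0.0953). With Csf1r alone as the index, 2 genes were called lower at 7D (Lyve1 and F13a1) and 2 at 21D (Cd163 and Lyve1), and Mrc1 and Stab1 at 7D had 0.19 and 0.36.

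The 2 receptors Lyve1 and Mrc1 moved apart after injury, which was tested directly on the log2 difference between them within each tendon. This measure and its tests were added after the values had been seen. Its own size also reflects the length of the transcripts, so that only its change between groups is used. In the controls log2 CPM of Lyve1 minus that of Mrc1 was 0.87, 0.50 and 1.37. With vehicle at 7D it was -1.56, -1.35, -2.02, -2.23 and -1.50. The control and vehicle tendons at 7D were separated by a wide gap, and control replicate 4 had the highest value of all. With vehicle at 21D it was -0.55, -0.06, -0.61, -0.72 and -0.33, between the other groups. The difference against control was -2.65 at 7D 0 mg/kg (SE 0.38, limma adjusted p = 7.61e-07), where 66.8% of all genes were lower relative to Mrc1. It was -1.27 at 7D 2 mg/kg (64.4% of all genes lower), -2.80 at 7D 6 mg/kg (78.8% lower), and between -1.14 and -1.42 at 21D, with a limma adjusted p of at most 0.0199 in each of the 6 groups. At 7D 2 mg/kg mean Lyve1 was 223 CPM beside 204 CPM in control, and mean Mrc1 was 293 beside 118 CPM. With all controls, the difference in that group came with a higher mean of Mrc1 and no lower mean of Lyve1. Control replicate 4, with 70.4 CPM of Lyve1 and 27.2 CPM of Mrc1, lowers both of these control means. Without it Mrc1 was not called in that group, and Lyve1 there changed sign in 2 of the fits without 1 tendon. The other controls had 342 and 199 CPM of Lyve1, beside 173 to 301 CPM at 7D 2 mg/kg. Without control replicate 4 the difference of Lyve1 relative to Mrc1 at 7D 0 mg/kg was -2.42 (limma adjusted p = 1.11e-05), and the call was lost only at 21D 2 mg/kg (-0.91, limma adjusted p = 0.0733).

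From 7D to 21D Lyve1 rose relative to Mrc1 by 1.28 at 0 mg/kg (limma adjusted p = 0.0213) and by 1.38 at 6 mg/kg (limma adjusted p = 0.0140), where 20.5% and 20.8% of all genes rose relative to Mrc1. At 2 mg/kg the value was 0.13 (limma adjusted p = 0.732). The call at 0 mg/kg was lost in 5 fits without 1 tendon, which gave between 1.15 and 1.33, and that at 6 mg/kg in 2 fits. F13a1 relative to Mrc1 had -1.68 against control at 7D 0 mg/kg (limma adjusted p = 0.000731), -1.35 at 7D 6 mg/kg (limma adjusted p = 0.00847) and -0.17 at 7D 2 mg/kg (limma adjusted p = 0.737). At 7D 0 and 6 mg/kg 66.8% and 78.8% of all genes were lower than control on this measure. Mean F13a1 itself was not lower at 7D 6 mg/kg, with 256 CPM beside 173 CPM in control, while mean Mrc1 was 422 beside 118 CPM. At 21D it had -0.53, -0.13 and -0.91 at 0, 2 and 6 mg/kg, none of them called. From 7D to 21D it rose by 1.15 at 0 mg/kg (limma adjusted p = 0.0392), and had 0.04 and 0.44 at 2 and 6 mg/kg, not called. Cd163 was not called lower than control relative to Mrc1 at 7D, with differences of -0.49 to -0.60, but was at 21D, with -1.03, -1.32 and -0.93 at 0, 2 and 6 mg/kg (limma adjusted p = 0.0221, 0.0032 and 0.0246). These calls of F13a1 and Cd163 against control were all kept without control replicate 4. At 21D 23.5%, 25.8% and 46.5% of all genes were lower than control on the same measure. For Folr2 and Stab1 no difference relative to Mrc1 was called in any of these comparisons with control.

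**Figure D3:**
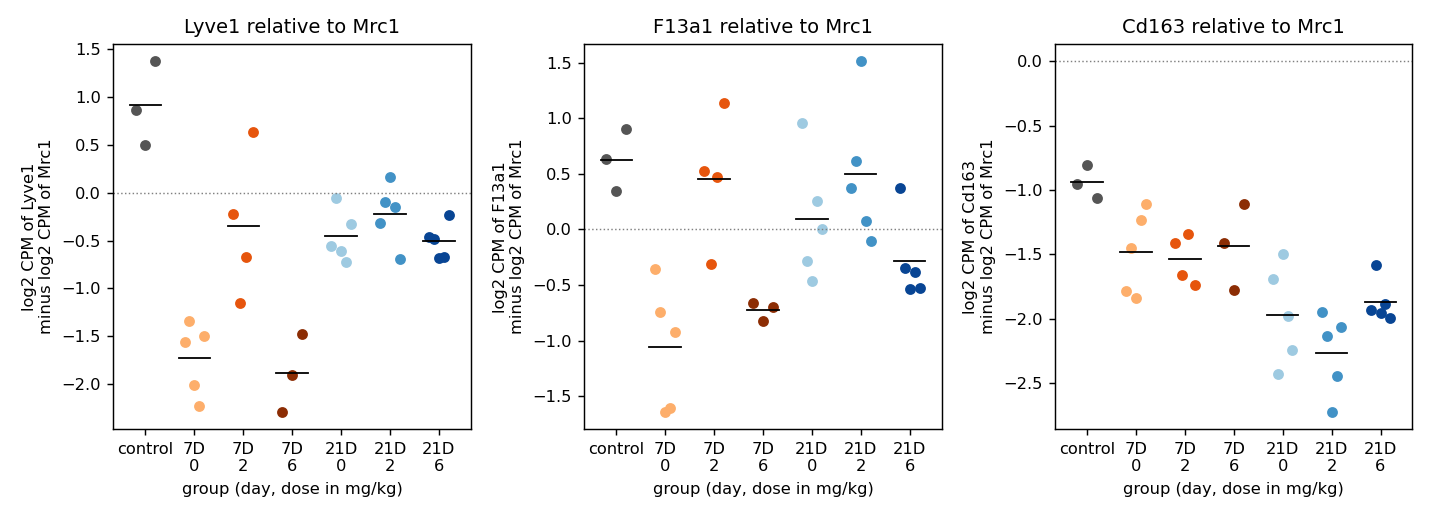
Log2 CPM of Lyve1 (left), F13a1 (middle) and Cd163 (right) minus log2 CPM of Mrc1 in each of the 30 tendons, by group; the black line is the group mean and the dotted line is 0. The Lyve1 controls (0.50 to 1.37) lie above all 5 vehicle tendons at 7D (-2.23 to -1.35), and the 21D vehicle tendons (-0.72 to -0.06) lie between them.

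Lyve1 and Stab1 can also come from vessels, so the markers of both kinds of endothelium were read beside them. Of 6 lymphatic markers at 7D 0 mg/kg against control, Prox1, a transcription factor of lymphatic cells, and Mmrn1 were lower (log2 fold change -1.27 and -1.16, edgeR adjusted p = 0.0120 and 0.0296) and Pdpn, which fibroblasts also make, was higher (1.47). Flt4, the lymphatic receptor for VEGF-C, had 0.11, and Ccl21 and Reln were not called. The summed lymphatic level was 384 to 759 CPM in controls and 358 to 660.4 CPM at 7D 0 mg/kg. At 7D 2 mg/kg Prox1 was again lower (-1.55, edgeR adjusted p = 0.00526), while Lyve1 had 0.13 and was not called. The skeletal muscle share was also lower in both of these groups than in control, and its part in the Prox1 value was not tested. The part of lymphatic cells in the Lyve1 value was not tested. Of 5 markers of blood endothelium, Vwf (1.25) and Tie1 (1.07) were higher at 7D 0 mg/kg, and their summed level was 149 to 589 CPM in controls and 498 to 784 CPM at 7D 0 mg/kg. Cdh5 (1.19) and Kdr were called as higher too without control replicate 4. Their part in the Stab1 value was not tested.

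The ligands and partners of the 6 proteins were examined as a list of 13 measured genes, of which 12 passed the filter on low values. Of these 12, 8 were higher and none lower at 7D 0 mg/kg against control, where 35.8% of all genes were higher and 71.4% were called in either direction. At 21D 0 mg/kg 9 were higher, beside 32.2% and 65.9% of all genes, and 5 without control replicate 4. For CD163, Hmox1, the heme oxygenase that breaks down heme taken up by the receptor, was higher by 3.65 on the log2 scale at 7D 0 mg/kg, and Hp, haptoglobin itself, by 1.79 (edgeR adjusted p = 1.91e-07 and 0.00348). From 7D to 21D at 0 mg/kg these 2 were the genes of the list that fell, by 1.40 for Hmox1 and by 2.26 for Hp (edgeR adjusted p = 0.0202 and 0.00486). For Lyve1, the hyaluronan synthases Has1 and Has2 and the other hyaluronan receptor, Cd44, were higher at 7D 0 mg/kg by 2.39, 2.61 and 2.53, in tendons where Lyve1 was lower. For F13a1, its substrate Fn1 (fibronectin) was higher by 2.78, and the tissue transglutaminase Tgm2 had 0.65 (edgeR adjusted p = 0.0533). For Stab1, its ligand Sparc had 0.35 and was not called. Of the growth factors of macrophages, Csf1 had 0.62 and Il34 0.17 at 7D 0 mg/kg, neither called, and both were called at 21D 0 mg/kg (1.02 and 0.33) but not without control replicate 4 (0.63 and 0.20).

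Other genes of resident and of recruited macrophages were read for comparison. Of 13 further resident genes, 10 were higher at 7D 0 mg/kg and none lower, from 0.63 (C1qb, not called) to 2.30 (Siglec1, the sialoadhesin CD169), and 5 without control replicate 4. At 21D 0 mg/kg 5 of the 13 were higher, among them the bridging ligand Gas6 (1.77), Mertk (1.08), the receptor that engulfs dying cells, and the chemokine Pf4 (1.68), and 2 without control replicate 4 (Gas6 and Colec12). Of 11 genes of recruited or wound macrophages and neutrophils, 9 were higher at 7D 0 mg/kg, from 0.46 (Cd9, not called) to 7.75 (Spp1, osteopontin), with Trem2 at 2.53. At 21D 0 mg/kg 8 of the 11 were higher, with Spp1 at 7.64 and Trem2 at 2.83, and the counts of 9 and 8 were the same without control replicate 4. The shares of all genes called as higher, 35.8% at 7D and 32.2% at 21D, stand beside these counts too. Ccr2, Timd4, Cbr2 and Stab2 were not analysed here.

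Across tendons of the same group the 6 genes varied together to different degrees. Over the 30 tendons, after each group's mean was subtracted from log2 CPM, the median Pearson r of the 15 pairs was 0.718. It ran from 0.32 for Lyve1 and Stab1 to 0.94 for Cd163 and Mrc1. Stab1 was close to Cd163 (0.81) and Mrc1 (0.73) and had 0.46 or less with the other 3, while Lyve1 was close to Folr2 (0.79), Mrc1 (0.77) and F13a1 (0.72). The tendons share their library depth and scaling across genes, control replicate 4 is low in all 6, and the values are a description. The median over pairs of other genes was not computed, so whether the 6 genes vary together more than others was not tested. Within the repaired groups alone the median was 0.547, from 0.20 (Stab1 and F13a1) to 0.91 (Cd163 and Mrc1), and F13a1 had 0.25 with Folr2, 0.40 with Mrc1 and 0.53 with Lyve1, against 0.51, 0.66 and 0.72 over all tendons.

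**Figure D4:**
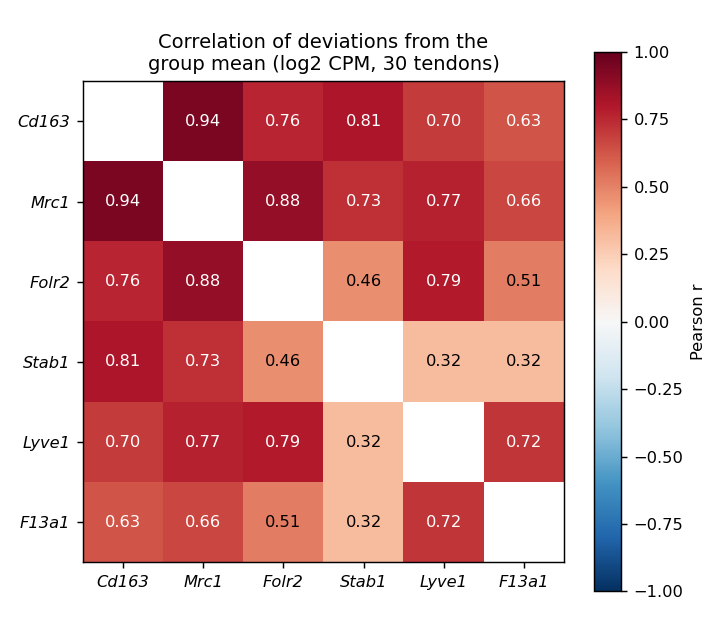
Pearson correlation of the deviations from the group mean in log2 CPM over the 30 tendons, for each pair of the 6 genes (colour scale from -1 to 1). Cd163 and Mrc1 have the highest value (0.94), and the lowest values are those of Stab1 with Lyve1 and F13a1 (0.32 each).

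The genes most like each member by the same measure, of 12557 others, differed between the members. For Cd163 they were Mrc1 (0.94), the complement gene C1qc (0.93), the lectin Clec10a (0.92), Ctse (0.92) and the purine receptor P2ry13 (0.91). For Mrc1 they were Erbb3 (0.96), P2ry13 (0.95), C1qc (0.95), RGD1559575 (0.94) and Cd163 (0.94). For Stab1 they were Slamf7 (0.89), Gcsam (0.87), Selenop (0.86), Ctse (0.83) and Cd163 (0.81). Ctse was among the 5 closest of both Cd163 and Stab1, and C1qc and P2ry13 were among those of both Cd163 and Mrc1. These rankings include the control tendons. For Folr2 they were the lysosomal protease Ctss (0.96), Csf1r (0.96), P2ry6 (0.95), Gna15 (0.95) and Tlr2 (0.94). For Lyve1 they were the leukotriene pathway genes Alox5 (0.89) and Alox5ap (0.87), Tagap (0.87), Fuca1 (0.87) and the chemokine scavenger Ackr2 (0.85). For F13a1 they were Nrip3, Pmp22, Gap43, Tspo and P2ry12, all between 0.78 and 0.79. None of the other 5 members was among the 5 closest genes of Lyve1, Folr2 or F13a1, and the nearest member ranked 27 for Lyve1 (Folr2), 51 for Folr2 (Mrc1) and 36 for F13a1 (Lyve1). The members also differed in their r with the 8 general macrophage genes. It was 0.76 (Cd68) to 0.96 (Csf1r) for Folr2, 0.51 (Cd68) to 0.82 (Csf1r) for Mrc1 and 0.42 (Cd68) to 0.71 (Csf1r) for Lyve1. For Cd163 it was 0.35 (Cd68) to 0.73 (Adgre1), for Stab1 0.06 (Tyrobp) to 0.68 (Adgre1) and for F13a1 0.13 (Cd68) to 0.40 (Aif1).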

How the data were processed

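Single right plantaris tendons were profiled by RNA sequencing (30 tendons in 7 groups, 3 to 5 per group). Per the study's methods, the authors used fastp for trimming, STAR for mapping single-end reads to rn6 and for counting in exons of Ensembl genes, and left out libraries of low quality. Tool versions and the strand setting are not given in the sources used here. The deposited counts are whole, unnormalized reads per gene, and the columns match the labels. For 7D 6 mg/kg the labels give 3 tendons, where the methods imply another, and the labels were followed. A second deposited table gave gene identifiers, chromosomes and spans (other values, not measurements). Its columns of the authors' own comparisons (fold changes, p-values, mean expression) were not used.

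The filter kept 12558 of 13124 genes, those whose mean reached 3 CPM in any group. Groups were compared with edgeR 4.0.16 quasi-likelihood tests with TMM scaling in R 4.3.3, in a fit of all 30 tendons with a mean per group, which gives the groups a shared spread. P values were adjusted by Benjamini-Hochberg over all genes, and calls use an adjusted p under 0.05. Confidence intervals use the degrees of freedom of that fit. Levels relative to the macrophage index or to Mrc1 were tested with limma 3.58.1 on log2 CPM with a prior count of 2. CPM values depend on library depth and TMM and not on gene length, so levels were not compared between genes. DESeq2 1.42.0, other scalings, other filters, a replicate block, a muscle covariate and the removal of each tendon served as alternatives. The fits of the gene lists, and of Cd163 and F13a1 relative to Mrc1, without control replicate 4 were added after the data had been seen. Scripts were tested on simulated data. The smallest chi-square per gene between replicates was 29.9, so none was a repeated library. Per the study's methods each tendon of a group came from a different rat.

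The 6 genes, the gene lists and the named tests were chosen with earlier results of these data known. Named genes are the 6 members in every group, the genes with the highest and lowest fold change of each list at 7D 0 mg/kg against control, its defining markers, the ligands and partners, and the 5 genes closest to each member. Other genes were named for the role they illustrate after their values were seen. Promoter sequences are from RefSeq (GRCr8), which is not the build of the counts.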

Additional observations from a re-analysis of the deposited data

Results flagged for a closer look

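One tendon stood apart within its group. Folr2 in replicate 3 of 21D 2 mg/kg was at 43.1 CPM, while the other 4 tendons of the group were at 83.0 to 98.9 CPM, and its distance from the nearest of them was 0.79 of the group's range on the log2 CPM scale. It was the only such value among 30 sets of a gene in a group of 4 or 5 tendons, and chance gives about 1 in 20. The same tendon also had the lowest Cd163 (13.5 CPM), Mrc1 (89.4 CPM), Stab1 (35.1 CPM) and Lyve1 (99.8 CPM) of its group, but the highest F13a1 (255 CPM).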

How the results depend on the processing

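The direction of the log2 fold change of Mrc1, Stab1 and Folr2 against control at 7D 0 mg/kg was kept in all scalings, filters and tools that were run. The lowest count of any of the 6 genes in a tendon was 159 reads, and whether depth or the number of tendons limits the precision was not tested. The counts of the 6 genes past the threshold moved by over 1.5 times under the following settings, except where a smaller move is named, and the cause was not tested. With size factors by relative log expression (RLE), 0 genes were called at 21D 6 mg/kg against control and 0 between 21D and 7D at 0 mg/kg. With library size alone the count was 3 at 21D 6 mg/kg against control, 0 between 21D and 7D at 0 mg/kg and 0 at 2 against 0 mg/kg at 7D, and it was 4 at 7D 2 mg/kg (with Stab1) and 5 at 7D 6 mg/kg (with F13a1). With no filter on low values it was 0 between 21D and 7D at 0 mg/kg and, as with DESeq2, 4 at 7D 2 mg/kg (with Stab1). With limma-trend the count against control was 1 for 21D 0 mg/kg and 2 for 21D 6 mg/kg, and between 21D and 7D it was 0 with vehicle and 1 with the 6 mg/kg dose. With DESeq2 it was 2 between 21D and 7D both with vehicle and with the 2 mg/kg dose, and 2 over the doses at 7D. With fits of only the groups compared, it was 2 at 7D 0 mg/kg, 1 at 7D 2 mg/kg and 0 at each dose at 21D against control, 0, 3 and 4 between 21D and 7D at 0, 2 and 6 mg/kg, and 0 at 2 against 0 mg/kg at 7D. With Csf1r alone as the macrophage index it was 2 at 7D 0 mg/kg and 2 at 21D 0 mg/kg against control.

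The skeletal muscle share separated control from repaired tendons completely, at 17.1% to 24.2% against at most 8.58%. No tendon lay in the gap, so a fit with the share as a covariate cannot tell it apart from repair in comparisons with control. In such a fit the count was 2 at 7D 0 mg/kg (Lyve1 and Stab1), 0 at 7D 2 and 6 mg/kg, 1 at 21D 0 mg/kg (Lyve1) and 0 at 21D 6 mg/kg against control, 0 between 21D and 7D at each dose and 0 at 2 against 0 mg/kg at 7D. In that fit the sign turned for Lyve1 at 7D 2 mg/kg against control (-1.27), between 21D and 7D at 2 mg/kg (0.14) and at 6 against 0 mg/kg at 7D (-0.29). It turned for Folr2 at 7D 2 and 6 mg/kg against control (-0.61 and -0.25), between 21D and 7D at 0, 2 and 6 mg/kg (0.050, 0.96 and 0.58), at 2 and 6 against 0 mg/kg at 7D (-0.85 and -0.48) and at 21D (0.065 and 0.047).

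On average, tendons with the same replicate number were hardly more alike than other tendons. Over 76 pairs with the same number, the correlation of their deviations from the group means lay between -0.70 and 0.68. Its mean was 0.0073, beside -0.00052 for pairs with different numbers. For 10 of 30 tendons the mean correlation with tendons of other groups was highest at their own number. The number that chance would give was not computed, and whether the replicate number marks a batch was not tested. By pair of groups the same-number mean ran from -0.16 (21D 2 mg/kg and 7D 0 mg/kg) to 0.32 (21D 6 mg/kg and 7D 0 mg/kg). In the latter, all 5 same-number pairs had 0.17 to 0.43. With the replicate number as a block, the count was 0 between 21D and 7D at each of the 3 doses and 1 (F13a1) at 2 against 0 mg/kg at 7D, Cd163 was no longer called at 7D 6 mg/kg against control (1.34, edgeR adjusted p = 0.0948), and the sign turned for Mrc1 at 2 against 0 mg/kg at 21D (0.0059) and for Stab1 (0.070) and F13a1 (-0.0083) at 6 against 0 mg/kg at 21D.

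Other signs that turned belong to differences that were not called. F13a1 at 6 against 0 mg/kg at 21D had -0.0049 with RLE, -0.059 with library size alone, -0.012 with no filter, -0.0033 with only the groups compared and -0.0050 with DESeq2. F13a1 against control had 0.31, 0.40 and 0.34 with library size alone at 7D 0 mg/kg, 21D 0 mg/kg and 21D 6 mg/kg, and 0.15 and 0.22 with limma-trend at 21D 0 and 6 mg/kg. Cd163 at 21D 6 mg/kg against control had 0.21 with library size alone and 0.20 with limma-trend. With limma-trend at 21D, Mrc1 had 0.0013 and Folr2 0.042 at 2 against 0 mg/kg, and Folr2 had 0.031 and Stab1 0.050 at 6 against 0 mg/kg. Relative to Csf1r alone, Mrc1 had 0.19 and Stab1 0.36 at 7D 0 mg/kg against control, and Folr2 had -0.033 between 21D and 7D at 0 mg/kg.

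With 1 tendon left out at a time, the count of the 6 genes called against control was 2 to 4 at 7D 0 mg/kg, 0 to 4 at 7D 2 mg/kg, 3 to 5 at 7D 6 mg/kg, 1 to 2 at 21D 0 mg/kg, 0 to 2 at 21D 2 mg/kg and 0 to 2 at 21D 6 mg/kg. It was 0 to 2, 0 to 1 and 0 to 2 between 21D and 7D at 0, 2 and 6 mg/kg, 0 to 2 at 2 against 0 mg/kg at 7D and 0 to 2 over the doses at 7D. Against control, the log2 fold change crossed 0 for F13a1 at 7D 0 mg/kg (-0.71 to 0.31) and at 21D with 0, 2 and 6 mg/kg (-0.58 to 0.44, -0.23 to 0.78 and -0.57 to 0.44), for Mrc1 at 21D 0 and 2 mg/kg (-0.16 to 0.80 and -0.20 to 0.75), for Cd163 at 21D 6 mg/kg (-0.73 to 0.17) and for Lyve1 at 7D 2 mg/kg (-0.33 to 0.67). Between 21D and 7D at 0 mg/kg it crossed 0 for F13a1 (-0.14 to 0.38). Between 2 and 0 mg/kg it did so at 7D for Cd163 (-0.38 to 0.26), Mrc1 (-0.18 to 0.22) and Folr2 (-0.018 to 0.31), and at 21D for Mrc1 (-0.17 to 0.16), Folr2 (-0.24 to 0.19) and Stab1 (-0.42 to 0.037). Between 6 and 0 mg/kg it did so at 7D for Lyve1 (-0.026 to 0.73) and Stab1 (-0.11 to 0.34), and at 21D for Folr2 (-0.26 to 0.18), Stab1 (-0.13 to 0.22) and F13a1 (-0.12 to 0.26). Between 6 and 2 mg/kg at 21D it did so for Folr2 (-0.17 to 0.12). Lyve1 relative to Mrc1 crossed 0 between 21D and 7D at 2 mg/kg (-0.14 to 0.46) and at 6 against 0 mg/kg at 7D (-0.36 to 0.043) and 21D (-0.12 to 0.046). F13a1 relative to Mrc1 was 0.0078 at 21D 2 mg/kg against control without control replicate 4.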

Other observations

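The paralogs of Mrc1 and Folr2 did not move in the same way as each other. Mrc2, the endocytic receptor for collagen that is made by fibroblasts, was higher at 7D 0 mg/kg than in control with a log2 fold change of 1.55 (edgeR adjusted p = 1.67e-05) and was also higher at 21D 0 mg/kg (1.26). Folr1, the folate receptor of epithelia, was lower at both times, with -3.72 at 7D 0 mg/kg (edgeR adjusted p = 1.94e-09) and -2.96 at 21D 0 mg/kg, while Folr2 was higher in the same tendons.

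Tendon genes were read in the same tendons. Of 6 genes, the tenocyte transcription factor Mkx (-4.10), Fmod (-1.64) and Tnmd (-1.43), the latter a marker of mature tendon, were lower at 7D 0 mg/kg against control and Col1a1 (1.14) was higher. At 21D 0 mg/kg Mkx (-2.42) and Fmod (-1.14) were lower and none was higher.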
